A study of Mus musculus with 6 samples.

Results

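Tuft cells are rare chemosensory cells of the gut epithelium, and 9 genes that mark them or serve their function were followed in colonic crypts: *Dclk1*, *Avil*, *Sh2d6*, *Pou2f3*, *Trpm5*, *Gnat3*, *Ptgs1*, *Alox5* and *Il25*. They were chosen by name, as genes known from tuft cells, with earlier results of these data known. All 9 were among the 18049 genes of the table. The study asked how inhibition of EZH2, the enzyme that places the repressive H3K27me3 mark on histones, acts in a mouse model of Lynch syndrome. Bulk RNA-Seq of colonic crypts covered 3 vehicle-treated control mice and 3 mice given the EZH2 inhibitor GSK503, and each mouse gave 1 library. All 6 mice, controls included, were of the same model line, which carries a gene deletion made by Villin-Cre, active in the intestinal epithelium, and a humanized *Tgfbr2* knock-in with a poly(A) repeat. They were on a C57BL/6J background and were fed a Western-style diet. GSK503 was injected into the tail vein at 200 μg/kg, and the control mice received its vehicle, captisol in PBS. The labels give no age or sex.

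The sex-linked genes separated the groups completely. *Xist* ranged from 0.419 to 0.936 in controls and from 825 to 1236 after GSK503, whereas the Y-linked *Uty* ranged from 42.5 to 53.7 in controls and from 0.67 to 1.08 after GSK503. The controls thus had a male pattern and the treated mice a female one, and treatment and sex cannot be told apart in any comparison given here. The estimated totals of the libraries ranged from 108162848 to 135085026 counts. The epithelial markers *Epcam*, *Krt8*, *Cldn7*, *Cdh1*, *Krt20* and *Car1* were present in every library, with sums of 10894 to 11348 in controls and 10046 to 14632 after GSK503. Values are those deposited by the authors, as estimated counts over the TMM-scaled library size (estimated CPM), a scale on which 3 counts are worth 0.0228 to 0.0271.

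Tuft cells sense luminal metabolites through a taste-like cascade, in which a G protein and a phospholipase raise intracellular calcium and the cation channel TRPM5 opens. They release IL-25, acetylcholine and eicosanoids, the lipid mediators made by cyclooxygenases and lipoxygenases. In the small intestine, IL-25 drives type 2 immune cells, whose cytokines in turn act on the epithelium and expand tuft and goblet cells. The transcription factor POU2F3 is required for tuft cells to form, and POU factors of its class bind the octamer motif ATGCAAAT.

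The promoter sequences of members that had the clearest differences are shown because the members share a known regulator whose motif can be searched. A promoter window of 250 bases before the start was taken from the RefSeq promoter table, made from GRCm38.p6, and 7 of the 9 members had one, with 8 windows in all because *Dclk1* had 2. *Pou2f3* and *Il25* had none. Each window matched GRCm39 exactly at a single place, and the 4 windows below run 5′ to 3′ on the strand of the gene. On GRCm39, the *Trpm5* window lies at chr7:142648380-142648629 on the minus strand and the *Avil* window at chr10:126836328-126836577 on the plus strand. The upstream *Dclk1* window lies at chr3:55149535-55149784, with its last 167 bases inside the annotated gene, and the downstream one, wholly inside the gene, at chr3:55368899-55369148, both on the plus strand. Capitals mark a match to ATGCAAA, the first 7 letters of the octamer, on either strand.
Trpm5: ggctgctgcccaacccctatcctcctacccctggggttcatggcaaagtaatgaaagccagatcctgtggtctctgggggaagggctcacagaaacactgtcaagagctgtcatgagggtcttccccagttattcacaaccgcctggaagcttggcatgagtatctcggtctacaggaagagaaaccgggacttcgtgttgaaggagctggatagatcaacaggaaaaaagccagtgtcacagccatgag
Avil: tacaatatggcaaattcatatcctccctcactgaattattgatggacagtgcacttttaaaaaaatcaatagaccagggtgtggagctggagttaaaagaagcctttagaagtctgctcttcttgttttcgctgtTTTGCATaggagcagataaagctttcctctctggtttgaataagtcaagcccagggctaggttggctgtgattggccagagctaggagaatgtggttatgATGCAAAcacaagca
Dclk1 upstream: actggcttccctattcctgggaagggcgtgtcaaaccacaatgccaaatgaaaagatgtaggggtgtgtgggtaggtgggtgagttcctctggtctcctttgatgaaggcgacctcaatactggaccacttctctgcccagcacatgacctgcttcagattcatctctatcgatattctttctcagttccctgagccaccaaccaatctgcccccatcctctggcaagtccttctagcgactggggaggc
Dclk1 downstream: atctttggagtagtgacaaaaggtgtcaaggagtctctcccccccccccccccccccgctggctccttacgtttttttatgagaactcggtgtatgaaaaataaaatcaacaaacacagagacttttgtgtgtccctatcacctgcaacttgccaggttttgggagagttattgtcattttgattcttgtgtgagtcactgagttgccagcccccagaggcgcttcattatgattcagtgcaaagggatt
The whole octamer ATGCAAAT was found on neither strand in any of the 8 member windows, and 526 of all 32851 windows (1.60%) held it. The 7-letter form, which is contained in every octamer match, was found in the *Avil* window only, where it occurred at 2 places, from -115 to -109 and from -15 to -9 relative to the start. Of all windows, 1355 (4.12%) held the 7-letter form. Among 39 other tuft genes with a window, 7 held the octamer and 8 the 7-letter form. Counted by gene in the same way, 1.81% and 4.65% of all 27025 genes with a window held them. A match is a run of letters in the window and not a measured binding site.

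Across the 8 members that could be tested, the mean was higher in GSK503-treated mice for all 8, but none passed the test across all genes. In 5 of them, *Dclk1*, *Avil*, *Sh2d6*, *Trpm5* and *Alox5*, the lowest treated mouse was higher than the highest control, and the group means differed by 1.50-fold to 1.68-fold. Of all 16670 genes tested, 83 (0.498%) were higher at an adjusted p below 0.05, against 0 of the 8 members (limma with Benjamini-Hochberg adjustment). At an unadjusted p below 0.05, 5 of the 8 members were higher and 0 lower, where 7.06% of all genes were higher and 6.27% lower. Treated mice did not overlap with control mice on the higher side in 5 of 8 members and in 9.84% of all genes tested. The log2FC (treated minus control, on the log2(value + 0.1) scale) was above 0 in 8159 of all genes tested and below 0 in 8511. Its median was 0.67 over the 8 members and -0.01 over all genes. In whole crypts, a larger share of tuft cells and more RNA of these genes per tuft cell cannot be told apart.

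**Figure D1:**
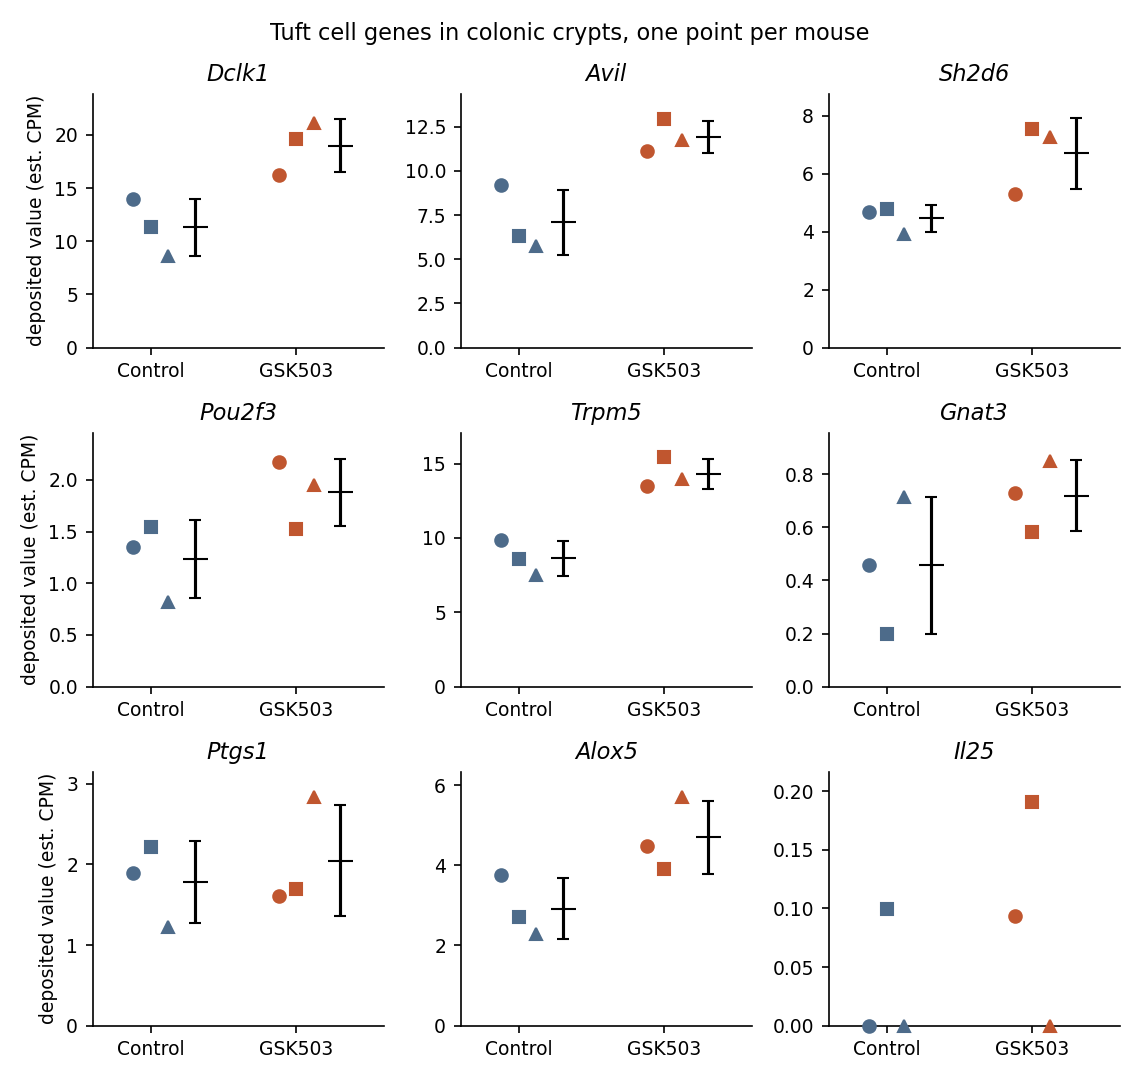
Deposited values (estimated CPM, linear axes from 0) of the 9 tuft cell genes in each control (blue) and GSK503-treated (orange) mouse. Circles, squares and triangles stand for replicates 1, 2 and 3, and bars give the mean ± SD of 3 mice (not drawn for *Il25*, which was at 0 in 3 mice). The groups do not overlap for *Dclk1*, *Avil*, *Sh2d6*, *Trpm5* and *Alox5*, and they overlap for the other 4 genes.

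*Dclk1* encodes a microtubule-associated kinase and is the most widely used tuft cell marker of the mouse gut. It lies at chr3:55149618-55446493 on the plus strand of GRCm39 (ENSMUSG00000027797). *Dclk1* was at 13.9, 11.4 and 8.62 in control mice 1, 2 and 3 and at 16.3, 19.6 and 21.1 in treated mice 1, 2 and 3. The lowest treated mouse was above the highest control mouse, and control mouse 3 was lowest of all. The means were 11.3 ± 2.66 (SD, n = 3) and 19.0 ± 2.48 (SD, n = 3). The log2FC was 0.76 (SE 0.18, 95% interval 0.36 to 1.16), with a limma adjusted p of 0.0974. The gene rests on 1096 to 1832 estimated counts per control library and 1921 to 2539 per treated library.

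*Avil* encodes advillin, an actin-binding protein of the villin family found in the apical bundles of tuft cells, and it lies at chr10:126836578-126856863 (plus strand, ENSMUSG00000025432). *Avil* was at 9.19, 6.31 and 5.77 in the control mice and at 11.1, 12.9 and 11.7 in the treated mice. The groups did not overlap, and the spread was narrower in treated (SD 0.91) than in control mice (SD 1.84). Its log2FC was 0.77 (SE 0.18, 95% interval 0.36 to 1.18, limma adjusted p = 0.101). *Tsfm*, a mitochondrial translation factor gene on the opposite strand, overlaps the *Avil* locus. It differed less, with means of 18.8 and 20.8 and a log2FC of 0.14 (limma adjusted p = 0.698). The library kit was stranded, but the strand setting of the counting is not given in the sources used here.

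*Sh2d6* encodes an SH2-domain protein that marks tuft cells, and it lies at chr6:72490624-72498690 (minus strand, ENSMUSG00000052631). *Sh2d6* was at 4.69, 4.77 and 3.93 in the control mice and at 5.31, 7.53 and 7.26 in the treated mice. Treated mouse 1 was near the controls and the other two were clearly above them. The log2FC was 0.56 (SE 0.19, 95% interval 0.14 to 0.99), with an unadjusted p of 0.0148 and an adjusted p of 0.238 in limma.

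*Pou2f3*, the lineage-determining transcription factor, lies at chr9:43035228-43121666 (minus strand, ENSMUSG00000032015). *Pou2f3* was at 1.35, 1.55 and 0.818 in the control mice and at 2.17, 1.53 and 1.95 in the treated mice. The groups overlapped, because treated mouse 2 was below control mouse 2. The means were 1.24 ± 0.376 and 1.88 ± 0.325 (SD, n = 3 each), and the 95% interval of its log2FC of 0.60, from -0.09 to 1.29, includes 0 as well as the values of *Dclk1* and *Avil* (limma adjusted p = 0.451).

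Of the taste-like signalling members, *Trpm5*, the calcium-activated cation channel, came closest to the threshold of all 9 genes. It lies at chr7:142622890-142648379 (minus strand, ENSMUSG00000009246). *Trpm5* was at 9.85, 8.56 and 7.49 in the control mice and at 13.5, 15.4 and 14.0 in the treated mice. The gap between the highest control and the lowest treated mouse was larger than the range within either group. The log2FC was 0.73 (SE 0.14, 95% interval 0.42 to 1.04, limma adjusted p = 0.0522), which placed it at rank 133 of the 16670 genes by p. *Tssc4*, which overlaps *Trpm5* on the opposite strand, had means of 17.2 and 19.9 with overlapping groups and a log2FC of 0.21 (limma adjusted p = 0.512).

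*Gnat3* encodes gustducin alpha, the G protein subunit coupled to taste receptors, and it lies at chr5:18167547-18225473 (plus strand, ENSMUSG00000028777). *Gnat3* was at 0.457, 0.199 and 0.716 in the control mice and at 0.729, 0.581 and 0.849 in the treated mice. The groups overlapped, and the control mice alone spanned 22 to 91 estimated counts. The 95% interval of the log2FC of 0.66, from -0.31 to 1.63, was the widest among the members (limma adjusted p = 0.554).

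Of the eicosanoid enzymes, *Alox5* was higher in every treated mouse and *Ptgs1* was not. *Alox5*, the arachidonate 5-lipoxygenase that starts leukotriene synthesis, lies at chr6:116387032-116438139 (minus strand, ENSMUSG00000025701). *Alox5* was at 3.75, 2.70 and 2.27 in the control mice and at 4.48, 3.91 and 5.69 in the treated mice. The groups were separated by a small gap, between control mouse 1 and treated mouse 2. Its log2FC was 0.68 (SE 0.24, 95% interval 0.14 to 1.23), with an unadjusted p of 0.0191 and an adjusted p of 0.263 in limma. *Ptgs1*, which encodes the cyclooxygenase COX-1, lies at chr2:36120438-36142287 (plus strand, ENSMUSG00000047250). *Ptgs1* was at 1.90, 2.22 and 1.22 in the control mice and at 1.60, 1.70 and 2.84 in the treated mice. Only treated mouse 3 was above all controls, and the log2FC was 0.19 (95% interval -0.53 to 0.91, limma adjusted p = 0.855). Without control mouse 3 or without treated mouse 3, the sign of its log2FC turned, to -0.048 and -0.063. *Alox5* and *Ptgs1* are also expressed by leukocytes.

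*Il25*, the gene of the tuft cell cytokine, lies at chr14:55170152-55173294 (plus strand, ENSMUSG00000040770) and was close to the limit of detection. Estimated counts were 0, 11 and 0 in the control libraries and 11, 24 and 0 in the treated libraries. A count of 0 allows a value of up to 0.0228 in control mouse 1, 0.0236 in control mouse 3 and 0.025 in treated mouse 3, for counting error only. *Il25* was below the filter on low values and was not tested.

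Compared per kilobase of merged exon in the control mice, *Sh2d6* had the highest level at 2.64 ± 0.275 (SD, n = 3), followed by *Avil* at 2.09 ± 0.540 and *Trpm5* at 1.35 ± 0.184. *Alox5* (0.708 ± 0.185), *Dclk1* (0.519 ± 0.122), *Ptgs1* (0.457 ± 0.131), *Pou2f3* (0.387 ± 0.118) and *Gnat3* (0.228 ± 0.129) followed. The control ranges of *Sh2d6* and *Avil* overlapped, as did those of each pair of neighbours from *Alox5* to *Gnat3*. *Trpm5* was separated from both of its neighbours, and *Il25*, at most 0.0935 in any control mouse, was below every control value of *Gnat3*. In the treated mice the order was the same except that *Pou2f3* (0.588) stood above *Ptgs1* (0.526). *Dclk1* has 35 annotated transcripts with 21795 bases of merged exon, which lowers its level per kilobase.

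The proportions among the members were compared by expressing each gene as a percent of *Dclk1* in the same library, and for most genes they differed less between the groups than between mice. *Trpm5* was at 77.6% ± 8.39 of *Dclk1* in the control mice and 75.9% ± 8.79 in the treated mice (SD, n = 3 each). *Avil* was at 62.8% ± 6.32 and 63.3% ± 6.90, and *Alox5* at 25.7% ± 1.68 and 24.8% ± 4.21. *Dclk1*, *Trpm5*, *Avil* and *Alox5* thus had closely similar mean proportions in both groups. *Pou2f3* was at 10.9% ± 2.32 and 10.1% ± 2.87, and *Gnat3* at 4.44% ± 3.43 and 3.82% ± 0.774. *Sh2d6* had 40.4% ± 6.10 and 35.1% ± 2.98. *Ptgs1* was the exception, at 15.7% ± 3.25 and 10.6% ± 2.49. Its groups did not overlap, but the gap was narrow, with the lowest control at 13.6% and the highest treated mouse at 13.4%. The exact two-sided permutation p was 0.1, the smallest that 3 against 3 allows (0.8 after Benjamini-Hochberg adjustment over 8 ratios). The ratios share *Dclk1* as their denominator, and a test of this size does not show that proportions were equal.

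**Figure D2:**
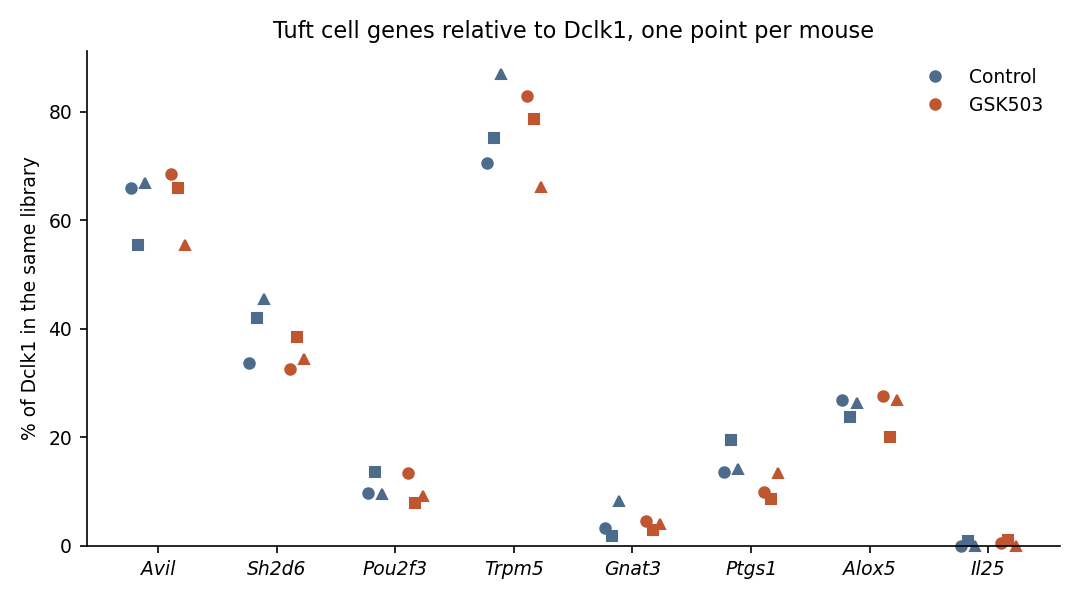
Level of each tuft cell gene as a percent of *Dclk1* in the same library (y axis, linear from 0), for control (blue) and GSK503-treated (orange) mice, with 1 point per mouse and circles, squares and triangles for replicates 1, 2 and 3. *Avil*, *Trpm5* and *Alox5* overlap between the groups. *Ptgs1* is lower relative to *Dclk1* in all 3 treated mice, by a narrow gap (at most 13.4%, against at least 13.6% in controls).

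The lists of other tuft genes held 49 genes in the table, and of the 47 tested, 32 had a log2FC above 0 and 15 below it. Of all 16670 genes tested, 8159 were above 0 and 8511 below it, which is also the background for the single lists. None passed an adjusted p of 0.05. At an unadjusted p below 0.05 in limma, 11 were higher (23.4%) and 5 lower (10.6%), against 7.06% and 6.27% of all genes tested. The groups did not overlap on the higher side in 15 (31.9%) and on the lower side in 8 (17.0%), against 9.84% and 9.22% of all genes. Their median log2FC was 0.23.

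The higher 11 all belonged to the general tuft signature, in which 19 of 25 tested genes had a log2FC above 0. *Rgs13*, a regulator of G protein signalling, had the highest log2FC of them at 1.04, from 0.836 ± 0.248 to 1.79 ± 0.281 (SD, n = 3 each, limma adjusted p = 0.186). The kinase genes *Bmx* (0.71) and *Matk* (0.57), the signalling gene *Vav1* (0.48) and the endoplasmic reticulum gene *Lrmp*, also called *Irag2* (0.52), had log2FC values within the range of the members (0.19 to 0.77). *Tppp3* (0.57), the keratin gene *Krt18* (0.48), the actin-bundling *Espn* (0.41), *Cd24a* (0.38) and villin, *Vil1* (0.21), were also among the 11, and *Krt18*, *Cd24a* and *Vil1* are expressed widely in the epithelium. *Bmx* is X-linked. *Kctd12* (-0.38), *Nrep* (-0.38) and *Ptprc* (-0.35), the last the gene of the leukocyte antigen CD45, were lower at an unadjusted p below 0.05. Of the signature genes above that p, *Inpp5j* (62.8 and 57.3), *Cwh43* (24.2 and 32.3) and *Strip2* (9.78 and 9.83) had the highest levels.

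In the taste-like cascade beyond the members, 5 of 7 tested genes had a log2FC above 0 and none reached an unadjusted p of 0.05. *Plcb2*, the phospholipase that acts upstream of *Trpm5*, had a mean of 4.92 ± 0.617 in the control and 5.81 ± 0.306 in the treated mice without overlap (log2FC 0.24). *Itpr3*, the calcium-release channel, had means of 343 and 317, with every treated mouse below every control mouse (log2FC -0.11), and is not limited to tuft cells. The taste receptor gene *Tas1r3* had means of 5.17 and 5.28. *Gng13*, the G protein gamma subunit that partners gustducin, is given although the naming rule did not pick it, since it had the largest log2FC of the list: 0.162 ± 0.0799 against 0.387 ± 0.0257 with no overlap, a log2FC of 0.94 and a limma adjusted p of 0.376.

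Of the other eicosanoid genes, 2 of 6 had a log2FC above 0 and 4 below it. *Pla2g4a*, the phospholipase that frees arachidonic acid, had means of 57.9 ± 1.60 and 51.1 ± 1.22, with a log2FC of -0.18 and an unadjusted p of 0.029 in limma. The prostaglandin D2 synthase gene *Hpgds* had means of 6.64 and 6.34, and the prostaglandin E synthase gene *Ptges* 2.06 and 1.39. The 2 genes above 0 act with *Alox5* in leukotriene synthesis: *Alox5ap*, which encodes its activating protein, had means of 0.922 and 1.17 with overlapping groups (log2FC 0.30), and the leukotriene C4 synthase gene *Ltc4s* 0.738 and 1.13 without overlap (log2FC 0.56, limma adjusted p = 0.466). On the lower side, *Ptgs2* had the log2FC of largest size in the eicosanoid list, at -0.88 (limma adjusted p = 0.486). Its means were 0.610 ± 0.0801 and 0.332 ± 0.215 (SD, n = 3 each), with every treated mouse below every control mouse. *Ltc4s* and *Ptgs2* were named after their values were seen. Among the transcription regulators, 6 of 9 had a log2FC above 0 and 3 below it. *Sox4* had means of 37.6 ± 1.73 and 31.4 ± 2.69, with a log2FC of -0.26 and an unadjusted p of 0.0167 in limma. *Sox9* (38.9 and 32.6), *Ascl2* (4.60 and 5.68) and *Spib* (3.54 and 3.33) had overlapping groups.

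**Figure D3:**
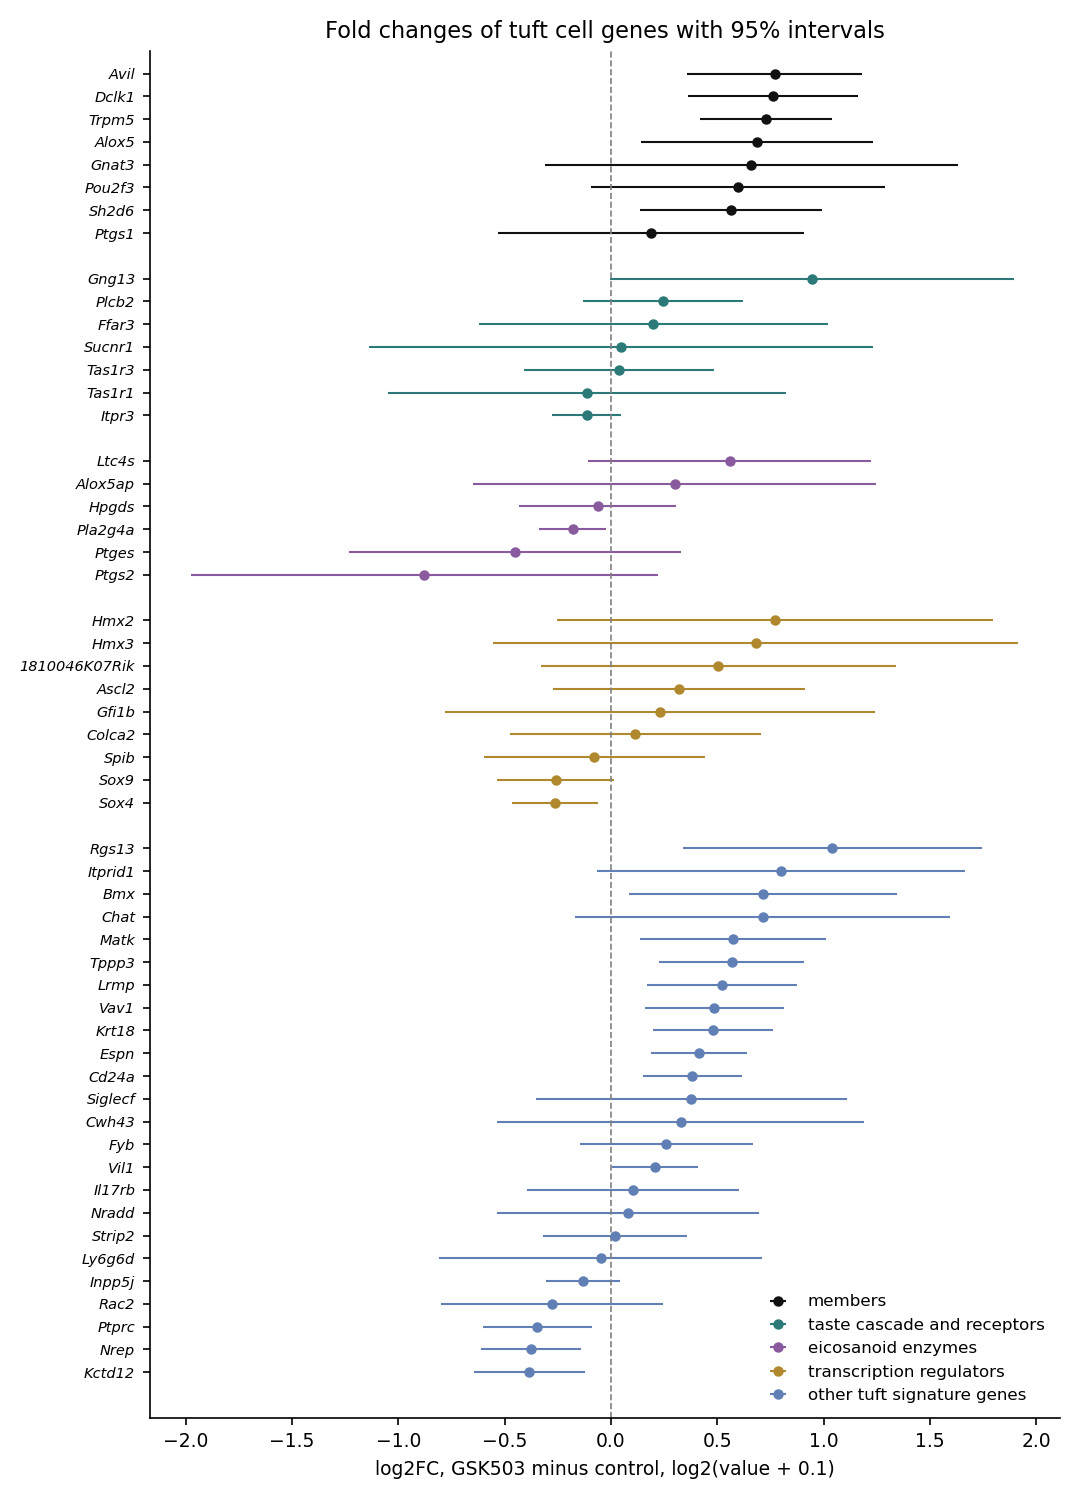
log2FC (GSK503 minus control, x axis, on the log2(value + 0.1) scale) of tested tuft cell genes, each with its 95% interval from limma, grouped from top to bottom as the members, taste cascade, eicosanoid enzymes, transcription regulators and other signature genes. The 8 members lie right of 0, and 5 of their intervals do not reach it, while the other groups hold genes on both sides.

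Of the genes of the type 2 circuit that links tuft cells, immune cells and goblet cells, 8 were in the table. *Retnlb*, which encodes the goblet cell product RELMβ, rose from 218, 125 and 116 in the control mice to 563.5, 586 and 484 in the treated mice (log2FC 1.88, limma adjusted p = 0.00423). *Retnlb* was the 1 gene of the 8 to pass the test, which it did not without the intensity trend (limma adjusted p = 0.171). *Il17ra*, which encodes a subunit of the IL-25 receptor, had means of 17.5 and 14.8 (log2FC -0.25, unadjusted p = 0.0386 and adjusted p = 0.342 in limma). The signalling genes *Stat6* (112 and 112), *Il13ra1* (96.2 and 105) and *Il4ra* (71.8 and 65.3) had overlapping groups. *Il4*, *Il5*, *Il13* and *Tslp* were on the list too but were not among the genes of the table, so they have no values here. The median log2FC of the 8 genes was 0.01.

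Other cell types were read from marker lists to see what else moved with the members. Enteroendocrine genes, which mark the other rare sensory lineage of the crypt, went the opposite way. Of them, 8 of 8 had a log2FC below 0, where 8511 of all 16670 genes tested did. *Chgb* (log2FC -0.85, limma adjusted p = 0.0215), *Gcg* (-0.72, 0.0393) and *Chga* (-0.70, 0.0471) were among the 24 genes lower at an adjusted p below 0.05. Without the intensity trend the adjusted p of *Chgb*, *Gcg* and *Chga* was 0.214 to 0.234. The call of *Chga* was lost without any single mouse (0.0537 to 0.138), that of *Gcg* without any but control mouse 1 (0.057 to 0.113), and that of *Chgb* without control mouse 1 or 2 or treated mouse 1 (0.0703 to 0.0854). Their sum was 195 to 245 in controls and 124 to 158 after GSK503, while the sum of the 9 members was 30.8 to 45.1 and 55.3 to 65.4. Control mouse 1 had the highest member sum of the controls and control mouse 3 the lowest.

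Macrophage markers, 9 of 9 of them with a log2FC below 0, summed to 89.8 to 124 in controls and 62.0 to 116 after GSK503, led by *Cd14*. Without *Cd14* they summed to 29.0 to 49.4 in controls, to 11.7 and 7.88 in treated mice 1 and 2, and to 66.4 in treated mouse 3, the highest of all. Mast cell markers summed to 78.03 to 117 and 77.4 to 97.4, led by *Kit*, with *Tpsb2*, *Tpsab1*, *Fcer1a* and *Ms4a2* at 0 in at least 1 mouse. Without *Kit* they summed to 10.7 to 38.9 in controls and 11.4 to 14.4 after GSK503. T cell markers summed to 7.10 to 13.7 and 7.82 to 9.26. Neutrophil markers, with *S100a8* and *Csf3r* at 0 in at least 1 mouse, summed to at most 0.567 and platelet markers to at most 1.66. B cell markers (22.0 to 75.0 in controls) and smooth muscle markers (20.3 to 80.4 in controls) were low in treated mice 1 and 2, at 3.66 and 1.95 and at 4.36 and 4.07, and high in treated mouse 3, at 61.4 and 110. The B cell sum of treated mouse 3 was mostly *Jchain* (57.9). Without *Jchain*, B cell markers summed to 3.77 to 26.4 in controls and to 2.82, 1.11 and 3.52 in treated mice 1, 2 and 3. Endothelial markers summed to 3.27 to 5.46 in controls, to 1.78 and 2.02 in treated mice 1 and 2, and to 7.44 in treated mouse 3, the highest of all. Markers of enteric nerve and glia (1.10 to 1.90 and 1.80 to 3.14) were low in all mice. Treated mouse 3 also had the highest *Ptgs1* and *Alox5*, and likewise the highest *Dclk1* (21.1), *Gnat3* (0.849) and member sum (65.4). *Avil*, *Sh2d6*, *Trpm5* and *Il25* were highest in treated mouse 2 and *Pou2f3* in treated mouse 1. The part of other cell types in the member values was not tested. Without treated mouse 3, *Trpm5* had a log2FC of 0.74 (limma adjusted p = 0.0681), *Dclk1* of 0.68 (0.147), *Avil* of 0.78 (0.122) and *Alox5* of 0.54 (0.357).

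**Figure D4:**
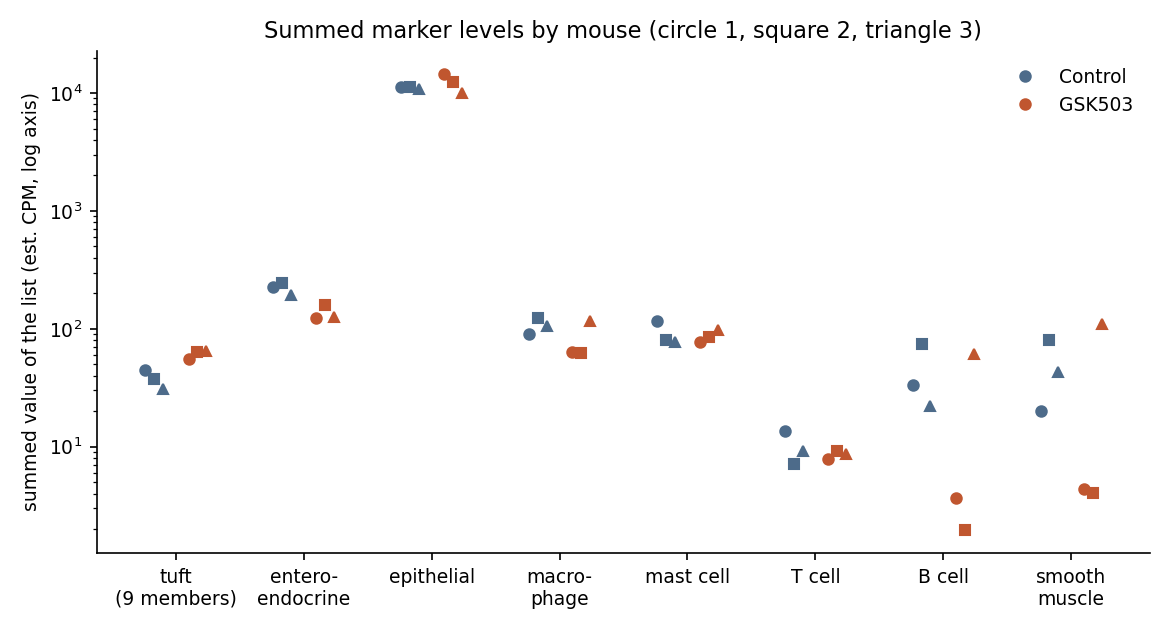
Summed deposited values (estimated CPM, log axis) of the 9 tuft cell genes and of marker lists of other cell types in each control (blue) and GSK503-treated (orange) mouse, with circles, squares and triangles for replicates 1, 2 and 3. Tuft sums are 30.8 to 45.1 in controls and 55.3 to 65.4 in treated mice, enteroendocrine sums lie the other way, and treated mouse 3 stands apart from treated mice 1 and 2 for B cell and smooth muscle markers. The B cell sum of treated mouse 3 is mostly *Jchain* (57.9).

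Genes with a pattern like that of the members were found by comparing each gene's centred log2 profile over the 6 mice with the mean profile of the 8 tested members. That profile ran at -0.09, -0.33 and -0.51 in the control mice and at 0.21, 0.25 and 0.47 in the treated mice. Among 12797 genes with a mean of at least 1, the 10 closest outside the tuft lists were *Tspyl2*, *Lrrc26*, *Kctd14*, *Afap1l2*, *Slc23a3*, *Slc25a12*, *Rab27b*, *Tff3*, *Fam189a1* and *Rasa4*, with root mean square differences from 0.0677 to 0.110 on the log2 scale. *Tspyl2* is X-linked. *Tff3*, the goblet cell trefoil peptide gene, rose from a mean of 294.5 to 506 (limma adjusted p = 0.0325), *Rab27b*, a gene of vesicle secretion, rose from 44.1 to 69.1 (limma adjusted p = 0.0157), and *Rasa4* rose from 50.2 to 84.8 (limma adjusted p = 0.0286). All 3 calls were lost without control mouse 2 or treated mouse 2 (adjusted p 0.0654 to 0.167), and those of *Tff3* and *Rasa4* also without control mouse 3 or treated mouse 3 (0.0501 to 0.067). Of 35 other tuft genes ranked, *Vav1* stood at rank 3, *Bmx* at 55 and *Cd24a* at 123, and 11 were in the first 10% of ranks. *Trpm5* was at rank 24, *Dclk1* at 29 and *Alox5* at 32, whereas *Pou2f3* was at 803 and *Ptgs1* at 3777. The ranks rest on 6 libraries, and the members helped to set the profile they were compared with. That profile was lower in every control than in every treated mouse, so a group difference was built into the choice of the 10 genes. The adjusted p-values of *Tff3*, *Rab27b* and *Rasa4* come from the same 6 libraries and are not independent of that choice.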

How the data were processed

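Colonic crypt RNA of 3 control and 3 GSK503-treated mice was analysed, grouped by the sample labels, with 1 library per mouse. Per the submitters' processing notes and the study's methods, reads were aligned to GRCm39 with STAR and counted per gene with RSEM, and the authors scaled the counts with edgeR's TMM method. The deposited signal is thus an estimated count per gene divided by the TMM-scaled library size, and its values are not raw counts. The values of a library summed to between 975566 and 1076042. The worth of 1 count was recovered from the low values, of which between 83.4% and 85.8% were whole multiples within 0.02 counts among values below 200 counts, and it gave the library totals. Totals and floors cover counting error only.

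Groups were compared with limma (version 3.58.1, R 4.3.3) on log2(value + 0.1), with an intensity trend and two-sided Benjamini-Hochberg adjusted p-values over the 16670 genes that reached 0.1 in 3 or more of the 6 mice. Fold changes on this scale understate the change of low genes. An exact permutation test of 3 against 3 mice cannot go below 0.1. The limma p-values test the group difference against the spread between these mice, moderated over all genes. That difference includes the one in sex pattern. The fit was tested on simulated data.

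The 9 members and all gene lists were chosen with earlier results of these data known. All members were named, and of the other tuft and type 2 lists every gene with an unadjusted p below 0.05 and otherwise the 3 with the highest mean. The 10 genes nearest to the member profile were also named. Symbols were matched to GENCODE M39, and promoter windows came from RefSeq. Alternatives were other pseudocounts, filters and scalings, a fit without the trend, robust empirical Bayes, limma-voom on the recovered counts, a replicate block and leaving out each mouse. Figures were made with Python 3.11.15 and matplotlib 3.10.9. The deleted gene and 1 gene of the signature list, which is kept in the counts, are not reported here. Organoid, single-cell and ChIP-Seq data were not analysed here.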

Additional observations from a re-analysis of the deposited data

How the results depend on the processing

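The log2FC of each of the 8 members tested stayed above 0 under every alternative that tested it, except that *Ptgs1* turned without control mouse 3 or without treated mouse 3. With 1 mouse left out, its log2FC ranged from -0.063 to 0.36. The count of members with an adjusted p below 0.05 was 0 in the fit as reported. It was 1 with a filter of at least 1 in at least 3 mice (*Trpm5*, 0.0465), 1 with robust empirical Bayes (*Trpm5*, 0.0408), and 0 to 1 with 1 mouse left out (*Avil* without control mouse 1, 0.0323). The adjusted p of *Trpm5* lay between 0.0408 and 0.264 over all alternatives. Between 4 and 6 members had an unadjusted p below 0.05 throughout, and limma-voom called 0 members after adjustment.

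Counts over all genes depended more on the processing. At an adjusted p below 0.05, 107 genes were called, 83 higher and 24 lower (77.6% higher). Library size alone gave 261, with 83 higher and 178 lower (31.8% higher). It moved the median log2FC of all genes from -0.01 to -0.12 and that of the members from 0.67 to 0.57. Scaling to the epithelial genes *Epcam*, *Krt8*, *Cldn7* and *Cdh1*, without *Krt20* and *Car1*, gave 58.3% higher calls. A fit without the trend gave 16 calls, 56.2% of them higher. Leaving out 1 mouse gave 29 to 216, the lowest without treated mouse 2 and the highest without treated mouse 3, where 53.7% were higher. At an unadjusted p below 0.05 there were 2223 genes, 3403 with library size alone and 1364 to 2552 with 1 mouse left out.

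The replicate numbers showed no sign of pairing. The deviations of same-numbered mice correlated at 0.0322, -0.126 and -0.119, and those of differently numbered mice at -0.175 to 0.224. With 3 mice a group, these values cannot exclude a pairing. With a replicate block, 33 genes and 0 members had an adjusted p below 0.05, and that of *Trpm5* was 0.134. The block also raised *Chga*, *Gcg*, *Tff3*, *Rab27b* and *Rasa4* above an adjusted p of 0.05 (0.0674 to 0.123), as the fit without the trend did for these genes, *Chgb* and *Retnlb* (0.171 to 0.234). The call of *Chga* was also lost with a pseudocount of 0.01 or 1 (0.052 and 0.0541), and that of *Tff3* with scaling to epithelial genes (0.0566). Depth limits *Il25* and *Gnat3*, which rest on at most 24 and 102 estimated counts per library, and 3 mice a group limit the precision of all members.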
